A study of Mus musculus with 6 samples.

Results

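The phagocyte NADPH oxidase genes Cybb, Cyba, Ncf1 and Ncf4 were followed in mouse livers with and without Sirt5, a mitochondrial lysine deacylase. Nox4, a Nox family member of non-phagocytic cells, was followed with them. These 5 genes were taken by name from the 55536 genes of the deposited table, and all 5 passed the filter on low counts that left 14799 genes tested. The RNA came from 3 Sirt5+/+ and 3 Sirt5-/- livers of male C57BL/6 mice, injected at 4 weeks of age and sampled 20 days after hydrodynamic injection (HDI), in which plasmids are forced into the liver through the tail vein. All 6 livers, the Sirt5+/+ controls included, are labelled as given YAP5SA, a form of the transcriptional co-activator YAP that resists phosphorylation and drives liver tumors. Per the labels, 50 µg of the plasmid PB[CMV-myc-YAP5SA]DS, with a CMV promoter, went with 10 µg of the transposase plasmid Act-PBase, and libraries of the RFP control plasmid that the labels also name were not analysed here. The labels do not say in which cells or with which allele Sirt5 was removed, nor that each liver came from its own animal, and the p-values speak only of how these samples scatter, which may be technical.

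The phagocyte NADPH oxidase moves electrons from NADPH across a membrane to oxygen and so makes superoxide. Its membrane part, flavocytochrome b558, joins the catalytic subunit gp91phox (also called Nox2, from Cybb) to p22phox (from Cyba), and it stays silent until cytosolic subunits, p47phox (Ncf1) and p40phox (Ncf4) among them, and a Rac GTPase dock on it. In the liver it is best known from macrophages and neutrophils. Nox4, in contrast, needs p22phox but no cytosolic subunit, releases mainly hydrogen peroxide, and has been described in hepatocytes and in activated stellate cells.

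The 4 phagocyte subunits were all higher in Sirt5-/- livers, by 3.88-fold for Ncf1, 5.95-fold for Cyba, 7.45-fold for Cybb and 9.45-fold for Ncf4, and the genotypes did not overlap for any of them. Nox4 had a lower mean in Sirt5-/- livers, but its genotypes overlapped and its difference did not pass the test. Over all 14799 genes tested, 34.5% were called in either direction, 17.4% were called higher and 17.1% lower, at an adjusted p under 0.05 in edgeR's quasi-likelihood test, so being called is not in itself unusual in this comparison. Of all genes, 3.22% had a larger log2 change than Cybb, 5.09% than Cyba, 9.8% than Ncf1 and 1.9% than Ncf4. The median log2 change of all genes was -0.08.

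Sirt5 itself had 352, 441 and 95.7 expected counts in the Sirt5+/+ libraries and 13.8, 44.7 and 18.0 in the Sirt5-/- libraries. As CPM, which scales counts to a common library size (here with TMM factors), this was 16.7, 15.8 and 12.5 against 0.804, 1.23 and 0.497, a log2 change of -4.13 ± 0.38 (SE; edgeR adjusted p = 0.00146). The 3 Sirt5-/- libraries all lay below the 3 Sirt5+/+ libraries. The labels do not say which exons the deletion removes.

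Totals per library lay between 19307808 and 24330797 counts, with 16768 to 20997 genes above 0, so the floor of 3 counts, which covers counting error only, stood at 0.0827 to 0.393 CPM. Mitochondrially encoded genes took 7.20, 6.58 and 46.4% of the counts in the Sirt5+/+ libraries and 40.8, 21.5 and 17.5% in the Sirt5-/- libraries, and Sirt5+/+ replicate 3 and Sirt5-/- replicate 1 thus stood apart from the rest. TMM factors ran from 0.396 to 1.68. With library totals in their place the median of all genes rose to 0.60, and the calls went from 2575 higher and 2525 lower to 2438 higher and 325 lower.

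The promoters of the genes are shown because the oxidase genes moved together while Nox4 did not move with them. Each run below is the RefSeq window (GRCm38.p6) of 250 bases before the annotated start and the first 20 transcript bases, read 5′ to 3′ on the gene's own strand, at X:9469305-9469574 (minus strand) for Cybb, 8:122432921-122433190 (minus) for Cyba, 5:134229606-134229875 (minus) for Ncf1 and 7:87246399-87246668 (plus) for Nox4. Capitals mark matches on either strand to the PU.1 box core GAGGAA, to CCAAT and to the GC box core GGGCGG; no match overlapped another.
Cybb: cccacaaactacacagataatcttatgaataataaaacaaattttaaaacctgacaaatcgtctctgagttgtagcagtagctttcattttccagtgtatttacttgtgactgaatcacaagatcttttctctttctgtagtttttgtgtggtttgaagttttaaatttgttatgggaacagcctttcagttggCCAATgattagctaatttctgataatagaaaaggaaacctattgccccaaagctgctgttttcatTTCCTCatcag
Cyba: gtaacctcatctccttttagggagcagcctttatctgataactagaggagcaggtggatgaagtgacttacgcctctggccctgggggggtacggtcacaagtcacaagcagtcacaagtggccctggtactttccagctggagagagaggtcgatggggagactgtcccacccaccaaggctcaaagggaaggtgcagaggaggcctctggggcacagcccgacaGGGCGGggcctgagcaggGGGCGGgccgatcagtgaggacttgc
Ncf1: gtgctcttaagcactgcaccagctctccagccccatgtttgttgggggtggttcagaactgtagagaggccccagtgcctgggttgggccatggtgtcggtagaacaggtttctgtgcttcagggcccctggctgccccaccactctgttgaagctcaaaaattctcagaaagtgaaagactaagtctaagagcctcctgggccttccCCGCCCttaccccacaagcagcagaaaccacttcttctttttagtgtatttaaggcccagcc
Nox4: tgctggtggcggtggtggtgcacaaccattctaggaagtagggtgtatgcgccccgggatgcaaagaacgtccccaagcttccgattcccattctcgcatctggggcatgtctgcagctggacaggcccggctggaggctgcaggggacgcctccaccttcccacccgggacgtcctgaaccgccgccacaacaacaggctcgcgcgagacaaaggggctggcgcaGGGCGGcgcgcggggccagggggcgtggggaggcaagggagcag
The Cybb window held GAGGAA on the strand opposite to the gene, printed as TTCCTC, starting 9 bases after the start site, and CCAAT 56 bases before it. The Cyba window held GGGCGG at 24 and at 6 bases before the start, the Ncf1 window held it on the strand opposite to the gene, printed as CCGCCC, at 42 bases before, and the Nox4 window at 24 bases before. Among 32851 promoter windows of the same length, 25.1% held GAGGAA, 35.4% CCAAT and 34.1% GGGCGG, so each match is of a kind that many promoters have. Ncf4 is named only. The windows of Cybb and Nox4 lie inside the gene spans given below, so their RefSeq starts are not the outer ends of those spans.

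Cybb (ENSMUSG00000015340, X:9435252-9487771, minus strand, GRCm38) encodes the electron-carrying core of the enzyme. It had 213, 481 and 163 expected counts in the Sirt5+/+ libraries, in replicate order, and 1495, 4295 and 5628 in those of Sirt5-/-. As CPM this was 10.1, 17.2 and 21.4 against 87.2, 118 and 155, with means of 16.2 ± 5.69 and 120.3 ± 34.1 (SD, n = 3 each). The lowest Sirt5-/- library lay above the highest Sirt5+/+ library. The log2 change was 2.90 ± 0.37 (SE, 95% interval 2.05 to 3.75; edgeR adjusted p = 0.00188). In these bulk samples, fewer cells of a type and less RNA per cell cannot be told apart, and the same holds for more.

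Cyba (ENSMUSG00000006519, 8:122424776-122432930, minus strand) encodes p22phox, the membrane partner that steadies both gp91phox and Nox4. Its CPM were 14.0, 10.8 and 19.4 in Sirt5+/+ and 60.7, 91.6 and 109 in Sirt5-/- livers, from 148 to 302 and 1040 to 3959 expected counts. The genotypes were again apart, at 14.7 ± 4.35 and 87.2 ± 24.6 CPM (SD, n = 3 each), with a log2 change of 2.57 ± 0.34 (SE, 95% interval 1.80 to 3.35; edgeR adjusted p = 0.00198). All 8155 bases of Cyba lie within Gm20388 on the opposite strand, and no source used here says whether counting used strand. Gm20388 itself had 21.8, 18.4 and 15.5 CPM in Sirt5+/+ and 21.5, 21.6 and 23.3 in Sirt5-/- livers (log2 change 0.25, edgeR adjusted p = 0.409). Of the 31-base words of Cyba transcripts, 7.3% occur in other genes too.

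Ncf1 (ENSMUSG00000015950, 5:134220053-134229625, minus strand) encodes p47phox, the organizer that is phosphorylated and carries the cytosolic subunits to the membrane. It had 8.07, 7.96 and 6.29 CPM in Sirt5+/+ livers, a narrow range, and 20.5, 30.3 and 36.3 in Sirt5-/- livers. Means were 7.44 ± 0.998 and 29.0 ± 7.95 CPM (SD, n = 3 each), and the log2 change of 1.96 ± 0.28 was the smallest of the 4 phagocyte subunits (SE, 95% interval 1.33 to 2.59; edgeR adjusted p = 0.00230). Expected counts were 48 to 223 in Sirt5+/+ and 352 to 1314 in Sirt5-/- livers. Ncf1 shares 4303 bases with Gtf2ird2 on the opposite strand, which had 4.46, 4.25 and 6.94 CPM in Sirt5+/+ and 3.91, 4.00 and 3.76 in Sirt5-/- livers (log2 change -0.41, edgeR adjusted p = 0.341).

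Ncf4 (ENSMUSG00000071715, 15:78244801-78262580, plus strand) encodes p40phox, which binds phosphatidylinositol 3-phosphate and takes part in oxidase activity at phagosomes. It went from 4.27, 3.86 and 9.30 CPM in Sirt5+/+ to 49.9, 50.5 and 59.9 in Sirt5-/- livers. These Sirt5-/- values lay close together, and the lowest of them was well above the highest Sirt5+/+ value, that of replicate 3. Expected counts were 71 to 108 and 856 to 2168. The means of 5.81 ± 3.03 and 53.4 ± 5.57 CPM (SD, n = 3 each) gave a log2 change of 3.24 ± 0.38, the largest of the set (SE, 95% interval 2.38 to 4.10; edgeR adjusted p = 0.00168).

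Nox4 (ENSMUSG00000030562, 7:87246096-87398710, plus strand) had 13.6, 36.0 and 55.6 CPM in Sirt5+/+ and 24.6, 14.3 and 9.08 in Sirt5-/- livers. Sirt5+/+ replicate 1 lay below Sirt5-/- replicates 1 and 2, so the genotypes overlapped. Means were 35.0 ± 21.0 and 16.0 ± 7.88 CPM (SD, n = 3 each), and the log2 change was -1.13 ± 0.53 (SE, 95% interval -2.34 to 0.08; edgeR adjusted p = 0.133). In TMM-scaled CPM, Nox4 was highest in Sirt5+/+ replicate 3 and Sirt5-/- replicate 1, which also had the largest mitochondrial shares of their genotypes. This depended on the scaling. By library totals Nox4 was highest in replicate 2 of both genotypes. Its CPM there was 43.0 against 22.0 in replicate 3 for Sirt5+/+, and 21.2 against 21.0 in replicate 1 for Sirt5-/-. With the mitochondrial share as a covariate the log2 change was -1.35 (adjusted p = 0.0174). Without both Sirt5+/+ replicate 3 and Sirt5-/- replicate 1 it was -1.04 (adjusted p = 0.0795), and without Sirt5+/+ replicate 1 it was -1.50 (adjusted p = 0.0456). Without Sirt5+/+ replicate 3 it was -0.59 (adjusted p = 0.320), and with library totals it was -0.45 (adjusted p = 0.718). A lower Nox4 level in Sirt5-/- livers was thus called under 2 of 20 alternatives.

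**Figure D1:**
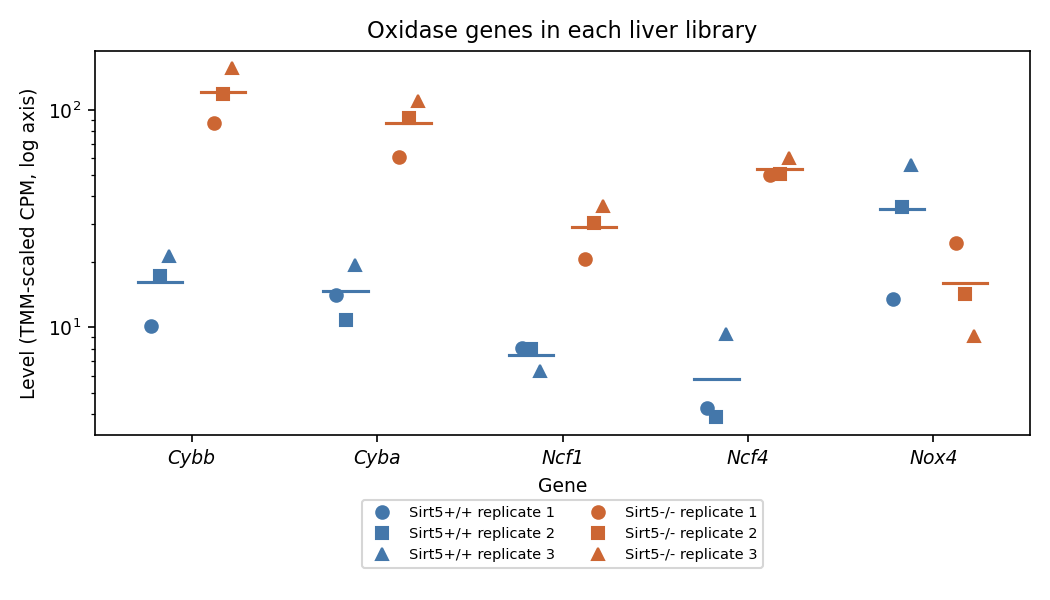
Level of each gene in the 6 liver libraries, as TMM-scaled CPM on a log axis; markers stand for single libraries (Sirt5+/+ left and Sirt5-/- right of each gene) and short lines for the mean of 3. The Sirt5-/- libraries of Cybb (87.2 to 155 CPM) lie above its Sirt5+/+ libraries (10.1 to 21.4 CPM) and likewise for Cyba, Ncf1 and Ncf4, whereas those of Nox4 overlap.

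Of the 5 genes, 4 were higher without any overlap, a pattern that 25.8% of all tested genes showed (49.8% in either direction). Scaled by library totals in place of TMM factors, the same 4 did not overlap. Cybb then ran from 8.44 to 20.5 CPM in Sirt5+/+ and 74.7 to 260 in Sirt5-/- livers, Ncf1 from 2.49 to 9.53 and 17.6 to 60.7, and Nox4 from 13.3 to 43.0 and 15.2 to 21.2. Only Nox4 overlapped between genotypes under both scalings. In the authors' deposited table the log2 changes were 2.83 for Cybb (adjusted p = 5.81e-14), 2.50 for Cyba (1.67e-11), 1.92 for Ncf1 (1.87e-08) and 3.13 for Ncf4 (3.74e-15). Nox4 was at -1.02 in the authors' deposited table (adjusted p = 0.0975), where 39.3% of the genes tested here were under 0.05.

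Levels of different genes were compared per transcript length, as the deposited TPM, a measure of transcripts scaled for length and depth. Cyba was the most abundant of the set in every library, at 9.57 to 27.1 TPM in Sirt5+/+ and 74.3 to 286 TPM in Sirt5-/- livers. Its ratio to Cybb, in TPM, was 11.3, 5.66 and 7.48 in Sirt5+/+ and 2.42, 5.86 and 5.74 in Sirt5-/- livers. The lowest of these came from Sirt5-/- replicate 1, where the Cybb TPM stood apart from its count: relative to the typical gene it was 1.81 times the count per length, against 0.697 to 0.830 times in the other 5 libraries. With CPM per kilobase, a measure added for that reason after the values were seen, the Cyba to Cybb ratio was 8.88, 4.01 and 5.80 in Sirt5+/+ and 4.44, 4.94 and 4.49 in Sirt5-/- livers, and the genotypes overlapped.

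Nox4 and Cybb, the 2 catalytic subunits, changed places. The Nox4 to Cybb ratio in TPM was 1.59, 2.75 and 3.34 in Sirt5+/+ and 0.143, 0.140 and 0.0723 in Sirt5-/- livers. As CPM per kilobase it was 1.63, 2.54 and 3.15 against 0.341, 0.146 and 0.0708. Nox4 was thus the more abundant of the pair in each Sirt5+/+ library and the less abundant in each Sirt5-/- library on both scales. Cybb, in TPM, went from 2.40, 4.65 and 1.28 to 30.7, 35.4 and 49.8, while Nox4 TPM were 3.82, 12.8 and 4.27 in Sirt5+/+ and 4.38, 4.97 and 3.60 in Sirt5-/- livers.

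Among the cytosolic subunits, Ncf1 was lower relative to Cybb in Sirt5-/- livers. Its ratio to Cybb was 1.32, 0.764 and 0.486 in Sirt5+/+ and 0.388, 0.422 and 0.385 in Sirt5-/- livers as CPM per kilobase, and 0.594 was its lowest Sirt5+/+ ratio in TPM against 0.417 as the highest Sirt5-/- ratio. The genotypes did not overlap on either scale. The Ncf4 to Cybb ratio per kilobase, at 1.37, 0.729 and 1.41 in Sirt5+/+ and 1.86, 1.39 and 1.25 in Sirt5-/- livers, overlapped. These ratios are descriptions, with no test.

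**Figure D2:**
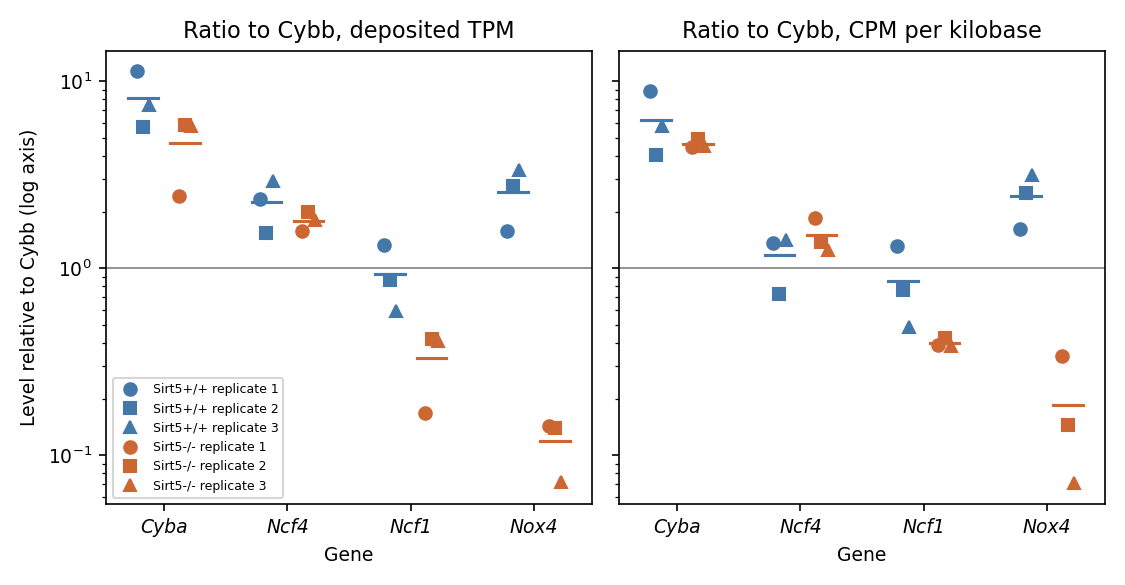
Level of each gene divided by that of Cybb in the same library, from deposited TPM (left) and from CPM per kilobase (right), on log axes with a line at a ratio of 1; markers are libraries and short lines the mean of 3. The Nox4 ratio lies above 1 in the 3 Sirt5+/+ libraries and below 1 in the 3 Sirt5-/- libraries in both panels.

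Likeness between the genes was measured as the root mean square difference of their mean-centred log2 CPM over the 6 libraries, where 0 is an identical pattern. Cybb was nearest to Cyba (0.377) and Ncf4 (0.400), Cyba lay 0.457 from Ncf4 and 0.471 from Ncf1, and Ncf1 and Ncf4 were the least alike of the 4 (0.874). Nox4 was 1.75 to 2.26 from each of them. Among the 13238 genes that averaged 1 CPM or more, those nearest to Cybb were Nod2 (0.0577), an intracellular sensor of bacterial cell wall fragments, the adhesion molecule Ncam1 (0.0919), the growth factor Fgf18 (0.106) and BC028528 (0.120). Their log2 changes were 3.15, 2.97, 3.28 and 3.05. Changes close to that of Cybb follow from choosing genes by their pattern over the same 6 libraries, and likewise for Nox4. Near to Nox4 were Akr1c14 (0.140), Slc25a21 (0.184) and the bile acid transporter Slc10a2 (0.208), with log2 changes of -1.07, -1.30 and -1.21 that did not pass the test (edgeR adjusted p 0.0783 to 0.123).

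The oxidase has further partners, and the list of these and of the other Nox and Duox genes held 16 genes, of which 9 could be tested, 4 rose, 1 fell and 4 did not pass; the median log2 change was 0.43. Rac2, the Rac GTPase of blood cells that completes the enzyme, had 12.1, 9.57 and 9.30 CPM in Sirt5+/+ and 82.4, 81.5 and 97.4 in Sirt5-/- livers. That is 10.3 ± 1.57 against 87.1 ± 8.92 CPM (SD, n = 3 each) and a log2 change of 3.07 ± 0.25 (edgeR adjusted p = 0.00146). Rac1, its widely expressed relative, stood at 96.6 ± 23.9 and 130 ± 21.2 CPM and did not pass (log2 change 0.43, 95% interval -0.23 to 1.10; adjusted p = 0.283).

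Cybc1, the chaperone needed for stable gp91phox, went from 10.6 ± 3.37 to 26.3 ± 9.05 CPM (SD, n = 3 each), a log2 change of 1.32 ± 0.35 (adjusted p = 0.0199). That call was lost without Sirt5+/+ replicate 1 (adjusted p = 0.0514), Sirt5+/+ replicate 2 (0.0665), Sirt5-/- replicate 2 (0.0699) or Sirt5-/- replicate 3 (0.0918). Sh3pxd2b, a p47phox-related scaffold, rose by 2.28 ± 0.28 on the log2 scale (adjusted p = 0.00180), while its relative Sh3pxd2a was at -0.01 (95% interval -0.58 to 0.55).

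Poldip2, known as a binding partner of p22phox that raises Nox4 activity, had 109, 73.6 and 21.9 CPM in Sirt5+/+ and 12.8, 13.8 and 12.9 in Sirt5-/- livers. It fell by 2.38 on the log2 scale (SE 0.51; edgeR adjusted p = 0.00893), with Sirt5+/+ replicate 3 nearest to the Sirt5-/- libraries. Rap1a, a small GTPase found with flavocytochrome b558, was at 0.34 (95% interval -0.89 to 1.57). Its Sirt5+/+ replicate 3 held 109 CPM against 20.7 and 36.6 in the others, and without that library the log2 change was 1.34 (adjusted p = 0.00402). Noxo1, the organizer of the Nox1 enzyme, was at 0.592 ± 0.422 and 0.734 ± 0.152 CPM (log2 change 0.42, 95% interval -1.04 to 1.87). Nox1, Noxa1, Duox2 and Duoxa2 were too low to test, with at most 17.9 expected counts in a library, and Nox3, Duox1 and Duoxa1 had no count in any of the 6.

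Receptors and signals that switch on the phagocyte oxidase rose widely, in 20 of 24 genes, with none lower and a median log2 change of 1.94. Under the 20 alternatives 16 to 23 of them were called higher. Fcer1g, the signaling chain of activating Fc receptors, went from 26.2 ± 12.4 to 269 ± 55.1 CPM (SD, n = 3 each; log2 change 3.37 ± 0.41, edgeR adjusted p = 0.00180). The immunoglobulin receptors Fcgr1 and Fcgr3 went from 7.66 and 16.7 to 61.9 and 111.7 CPM. Vav1 and Dock2, exchange factors that load Rac, rose from 4.04 ± 0.328 to 21.4 ± 1.91 and from 5.08 ± 0.664 to 25.7 ± 4.87 CPM, with log2 changes of 2.41 ± 0.23 (adjusted p = 0.00146) and 2.34 ± 0.25 (adjusted p = 0.00156).

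The formyl peptide receptor Fpr2 had 0.682 ± 0.128 and 4.65 ± 0.192 CPM (log2 change 2.75 ± 0.36, edgeR adjusted p = 0.00196), with 43% of its 31-base words shared with other genes, so its level is uncertain. The 4 that did not pass, named after their values were seen, were Vav3 (1.70, adjusted p = 0.0516), Arhgdib (1.20, adjusted p = 0.0581), Fpr1 (0.39) and Itgam (-0.34), the αM chain of the complement receptor whose β chain, Itgb2, rose by 1.91 ± 0.32 (adjusted p = 0.00370). Itgam was at 2.14 ± 2.22 and 1.78 ± 1.09 CPM (SD, n = 3 each).

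**Figure D3:**
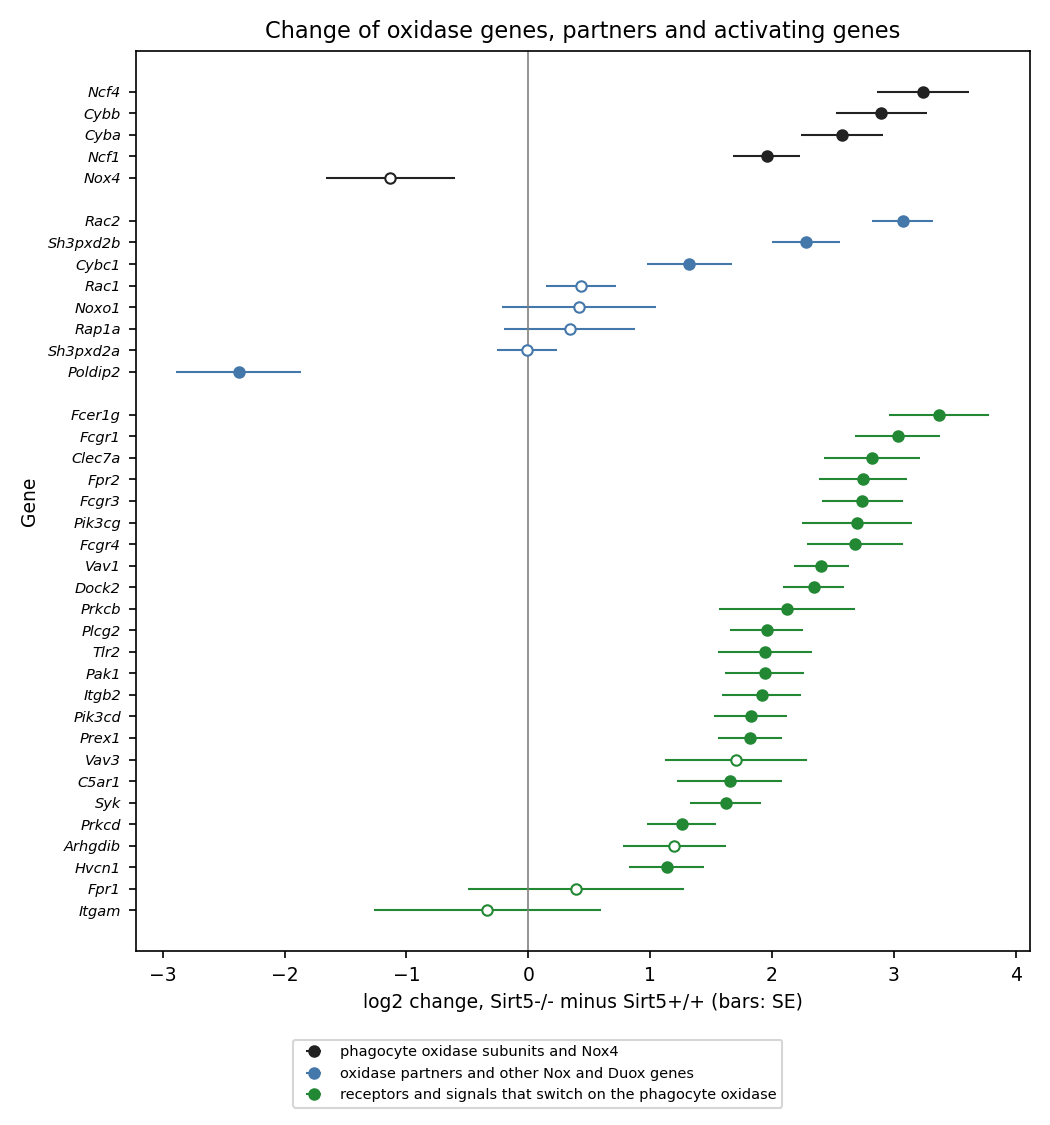
Log2 change of each gene (Sirt5-/- minus Sirt5+/+, points) with its SE (bars) for the phagocyte subunits and Nox4 (black), partners (blue) and the activating receptors and signals (green), with filled points for an adjusted p under 0.05. The 4 phagocyte subunits (1.96 to 3.24) and 20 of the 24 activating genes are filled to the right of 0, and Poldip2 (-2.38) is filled to the left.

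The list of transcription factors known to act on oxidase genes, which also holds the cytokine Tgfb1, was divided, with 5 of its 12 genes higher, 1 lower and 6 not passing (median 0.43). Tgfb1 was one of the 5, at 1.88 (edgeR adjusted p = 0.00282). Spi1, which encodes PU.1, had 14.5, 9.71 and 18.3 CPM in Sirt5+/+ and 76.5, 96.1 and 120 in Sirt5-/- livers, a log2 change of 2.79 ± 0.33 (edgeR adjusted p = 0.00170). Runx1 rose from 3.03 ± 0.836 to 26.2 ± 3.81 CPM (3.14 ± 0.29, adjusted p = 0.00146) and Irf8 from 12.9 ± 2.27 to 46.0 ± 8.97 CPM (1.84 ± 0.26, adjusted p = 0.00225). The lower one, named after its value was seen, was Cebpa, a factor of both hepatocytes and myeloid cells, which fell by 2.19 on the log2 scale (adjusted p = 0.00736). With library totals 4 were called higher and 0 lower, and without Sirt5+/+ replicate 3 the lower calls were 2.

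Enzymes that remove superoxide and peroxide did not move with the oxidase: 1 of 15 rose, 8 fell and 6 did not pass, with a median log2 change of -0.90. Gpx3, a secreted glutathione peroxidase, was the one that rose, from 9.91 ± 0.656 to 28.6 ± 2.74 CPM (1.53 ± 0.21, edgeR adjusted p = 0.00219). Cat, the catalase of peroxisomes, fell from 2068 ± 439 to 391 ± 65.9 CPM (log2 change -2.40 ± 0.40, adjusted p = 0.00357). Sod2, the mitochondrial superoxide dismutase, fell by 1.25 on the log2 scale (adjusted p = 0.00961), a call lost with library totals (0.574) and without Sirt5-/- replicate 2 (0.0615) or 3 (0.0629), and other genes hold 26.6% of its 31-base words. The 8 lower calls became 2 with library totals, 5 without Sirt5+/+ replicate 2, 3 without Sirt5-/- replicate 1 and 1 without either Sirt5-/- replicate 2 or 3. With the replicate block they became 3.

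Of 7 genes that supply NADPH, the electron donor of the oxidase, 1 rose and 5 fell (median -1.34). G6pdx, the entry enzyme of the pentose phosphate pathway, rose from 6.16 ± 0.594 to 26.2 ± 4.83 CPM (2.10 ± 0.24, edgeR adjusted p = 0.00167), while Idh1 (-1.56, adjusted p = 0.00384) and Me1 (-1.34, adjusted p = 0.00392) fell. With library totals the lower calls went from 5 to 0 (Idh1 adjusted p = 0.351, Me1 0.563), and without Sirt5-/- replicate 3 to 2. The rise of G6pdx held with library totals, at 2.82 (adjusted p = 0.00219). Of their 31-base words, 12.6% (G6pdx, most with G6pd2) and 30.0% (Me1) occur in other genes, so these levels are less certain.

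Of 11 other oxidant-producing enzymes 8 could be tested, of which 7 fell and 1 rose (median -2.28). Maob, a monoamine oxidase of mitochondria, fell from 101 ± 24.6 to 17.9 ± 4.16 CPM (log2 change -2.50 ± 0.31, edgeR adjusted p = 0.00183), and the aldehyde oxidase Aox3 was at -2.67 (adjusted p = 0.00188). Hao1, a peroxisomal glycolate oxidase, was at -2.08 (adjusted p = 0.00207), a call lost with library totals (0.138), under which 4 of the enzymes were called lower. The riser, named after its value was seen, was Maoa (0.98), not called on leaving out Sirt5+/+ replicate 2, Sirt5-/- replicate 1 or Sirt5-/- replicate 3, nor with library totals or the replicate block, and Mpo, Nos2 and Dao were too low to test.

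Markers of the cells that could carry the oxidase moved in the same comparison. All 5 pan-leukocyte markers rose (median 2.55), with a summed level of 154 to 165 CPM in Sirt5+/+ and 488 to 826 CPM in Sirt5-/- livers. All 8 macrophage markers rose (median 2.44), from 473 to 556 CPM up to 2086 to 4134 CPM, as with the complement genes C1qa (3.10), C1qb (2.87) and C1qc (3.23), and all 8 were called higher under each of the 20 alternatives. Of 4 tested monocyte markers 3 rose, the summed level going from 10.3 to 28.7 up to 127 to 163 CPM. Ccr2, the chemokine receptor of inflammatory monocytes, went from 12.7 ± 8.81 to 117 ± 15.1 CPM (3.23 ± 0.54, edgeR adjusted p = 0.00361). None of 6 Kupffer cell markers rose and 3 fell (median -2.13; 24.4 to 124 down to 10.7 to 15.6 CPM), as with Clec4f (-3.42), Cd5l (-3.26) and Marco (-2.57, adjusted p = 0.0836 with library totals). Their lower calls were 5 without Sirt5+/+ replicate 3.

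Neutrophil markers were low in both genotypes: 2 of 12 could be tested. The summed level of the 12 was 5.31 to 6.60 CPM in Sirt5+/+ and 9.30 to 15.2 CPM in Sirt5-/- livers. The one that rose was Csf3r (2.17 ± 0.62 to 8.57 ± 1.94 CPM, log2 change 2.01), a receptor that monocytes also carry and that shares 23.1% of its 31-base words with other genes. Leaving out Sirt5+/+ replicate 3 gave 2 called higher and 1 lower, and leaving out Sirt5-/- replicate 1 gave 2 called higher. Leaving out both of these libraries gave 3 called higher and 1 lower. With no filter, or with mitochondrially encoded genes removed, 3 were called higher. S100a8 was at 0.389 and 0.580 CPM and S100a9 at 1.26 and 1.24 CPM. Ly6g was all but absent from both genotypes, with 1, 0 and 0 expected counts in Sirt5+/+ and 0 in each Sirt5-/- library. Il1r2 (0.107 ± 0.0944 and 1.15 ± 0.662 CPM) and Mmp8 (0.0119 ± 0.0206 and 0.395 ± 0.0834 CPM), named after their values were seen, were too low for the test but higher in Sirt5-/- livers without overlap. In the authors' deposited table they had log2 changes of 2.61 (adjusted p = 0.00214) and 2.71 (adjusted p = 0.0113). Mmp9, also too low for the test, went the other way, at 0.879 ± 0.683 and 0.198 ± 0.106 CPM with overlap. Its log2 change in the authors' deposited table was -1.82 (adjusted p = 0.0467). Camp (-1.18), Cxcr2 (-0.42), Retnlg (-0.30) and Ngp (-0.27) were also below 0 there, with adjusted p above 0.05. Of the dendritic cell markers 2 of 7 rose (17.6 to 42.6 against 67.8 to 103 CPM). Without Sirt5+/+ replicate 3 this count was 4. The B cell list had 1 of 5 higher (4.65 to 5.78 against 9.50 to 11.8 CPM), and the T and NK cell list had 3 of 5 tested higher (2.61 to 7.60 against 20.4 to 25.0 CPM), and all 5 with library totals. The B cell gene was Cd79a (log2 change 1.14, edgeR adjusted p = 0.0253), not called without Sirt5+/+ replicate 2 (0.0538) or Sirt5-/- replicate 1 (0.0669), 2 (0.140) or 3 (0.0836), with library totals (0.1002), with the replicate block (0.0789) or with no filter (0.0555).

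Stellate cells and fibroblasts have been described to carry Nox4. Of their 11 tested markers 5 rose and 1 fell (median 1.40; 373 to 612 against 2094 to 2256 CPM). The risers included Pdgfrb (2.02) and Col1a1 (2.33), and Col3a1 alone went from 216 to 1106 CPM. Reln was the one that fell (-1.48, edgeR adjusted p = 0.00276). Lrat (-0.96), Ngfr (-0.64) and Des (-0.27) were also below 0 but did not pass. The lower calls were 3 without Sirt5+/+ replicate 3 and 0 with library totals. Of 12 hepatocyte markers 10 fell (median -1.90; 88625 to 114170 against 19607 to 38287 CPM), as with Cps1 (-2.17, adjusted p = 0.0665 with library totals), F2 (-2.83) and Ass1 (-3.10, with 43.1% of its 31-base words in other genes), and with library totals the lower calls were 3, without Sirt5-/- replicate 2 also 3 and without Sirt5-/- replicate 3 they were 4. In the sinusoidal endothelial list 4 of 7 fell (median -1.79), 1 of them with library totals, and in the bile duct list 2 of 6 rose (77.5 to 386 against 739 to 818 CPM). The part of these cell types in the oxidase changes was not tested.

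The oxidase genes were also read against the markers in the same library, as log2 CPM minus the mean log2 CPM of the 8 macrophage markers. The difference between genotypes was then 0.41 for Cybb, 0.06 for Cyba, -0.57 for Ncf1 and 0.80 for Ncf4, against 2.90, 2.57, 1.96 and 3.24 before. Ncf1 stood at -2.64, -2.50 and -2.73 in Sirt5+/+ and at -3.13, -3.20 and -3.27 in Sirt5-/- livers, so that its genotypes did not overlap, with Sirt5-/- the lower. Exact two-sided permutation tests gave p = 0.5, 0.9, 0.1 and 0.3, or 0.625, 0.9, 0.5 and 0.5 adjusted over the 5 genes. With 3 libraries against 3 the smallest p such a test can give is 0.1. Read against the pan-leukocyte markers instead, the differences were 0.54 for Cybb, 0.19 for Cyba, -0.45 for Ncf1 and 0.92 for Ncf4. Exact permutation p was then 0.1, 0.8, 0.3 and 0.1. The separation of Ncf1 thus depended on the markers chosen, and that of Cybb and Ncf4 appeared only with the pan-leukocyte markers.

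Nox4, read in the same way against the stellate cell and fibroblast markers, was at 0.23, 0.98 and 2.42 in Sirt5+/+ and at 0.27, -0.76 and -1.54 in Sirt5-/- livers, a difference of -1.89 (exact permutation p = 0.2, adjusted 0.5). The genotypes overlapped by 1 library on this scale. With Col1a1, Col1a2, Col3a1, Acta2 and Tagln left out of the reference, the difference was -1.09 (exact permutation p = 0.5). Nox4 with no reference was at -1.13. With the full reference, leaving out each library in turn moved the Nox4 difference between -2.38 and -1.28, and that of Ncf1 between -0.63 and -0.51. Those of Cybb (0.04 to 0.71) and Ncf4 (0.56 to 1.25) kept their sign, and that of Cyba did not (-0.14 to 0.34). Hepatocytes have also been described to carry Nox4, and the median log2 change of their markers was -1.90. Nox4 was not read against hepatocyte markers, so its difference holds for the stellate cell and fibroblast reference only.

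**Figure D4:**
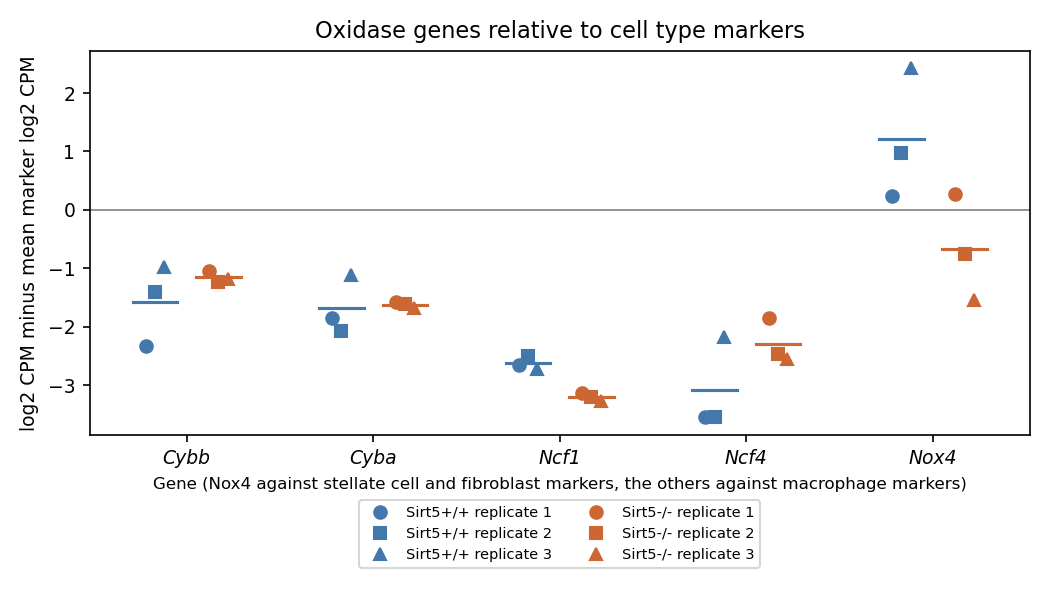
Level of each gene relative to cell type markers in the 6 libraries, as log2 CPM minus the mean log2 CPM of the macrophage markers (for Nox4, of the stellate cell and fibroblast markers), one point per library with short lines at the mean of 3. Ncf1 lies lower in the Sirt5-/- libraries (-3.27 to -3.13) than in the Sirt5+/+ libraries (-2.73 to -2.50), and the genotypes of Cybb, Cyba, Ncf4 and Nox4 overlap.

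The change of the phagocyte subunits held under all 20 alternatives in scaling, filter, test and libraries. Log2 changes ran from 2.67 to 3.71 for Cybb, 2.37 to 3.43 for Cyba, 1.78 to 2.63 for Ncf1 and 2.99 to 4.13 for Ncf4, with the largest adjusted p between 0.0132 and 0.0170. With the mitochondrial share as a covariate they were 2.89, 2.57, 2.06 and 3.21, and with Sirt5+/+ replicate 3 and Sirt5-/- replicate 1 left out together 3.37, 3.07, 2.11 and 3.82. For Nox4 they ran from -1.59 to -0.45, all below 0, with adjusted p from 0.0174 to 0.718.

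**Figure D5:**
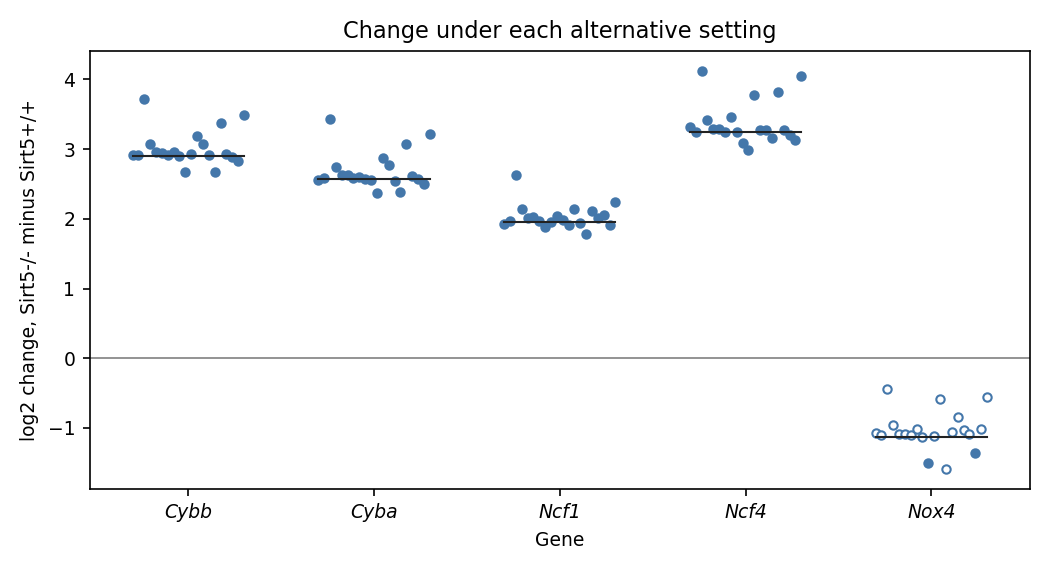
Log2 change of each gene (Sirt5-/- minus Sirt5+/+) under the 20 alternatives (points, filled for an adjusted p under the threshold) beside the reported value (line). Every point of Cybb, Cyba, Ncf1 and Ncf4 is filled and above 0, and the points of Nox4 lie between -1.59 and -0.45 with 2 filled.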

How the data were processed

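Bulk RNA sequencing of 6 livers was read from 1 deposited table, in which each of the 6 sample columns of each unit matched a sample (0 columns had none). Expected counts (read estimates with no scaling between libraries) and TPM were made by the authors before deposit, with HISAT2 2.1.0, RSEM 1.3.1 and DESeq2 1.24.0 named in the submitters' processing notes; the role and options of each tool, strand and the genome build are not given in the sources used here. The log2 fold changes and the adjusted p-values of the authors' deposited table were set beside the values computed here and counted as one alternative. All 55536 gene IDs and names are those of GENCODE M21, so gene coordinates are on GRCm38.

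Expected counts were rounded, low genes dropped by filterByExpr of edgeR (at a minimum count of 10 and a minimum total of 15), libraries scaled with TMM factors and tested with the quasi-likelihood F test of edgeR 4.0.16 (R 4.3.3), two-sided, in a model of genotype alone (Sirt5-/- minus Sirt5+/+), with Benjamini-Hochberg adjustment over 14799 genes. The SE is the log2 change over the root of its F value. The script was tested on simulated counts. Relative levels used log2 CPM with a prior count of 2 and exact permutation tests. Shared sequence was the share of 31-base transcript words found in other genes.

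The genes and lists were chosen with earlier results of these data known, from textbook knowledge. Named were the 5 genes, Sirt5, those tested genes of each list that had the lowest p (8 of the partners, 6 of the receptors and signals, 3 of each other list) and the 4 genes nearest to Cybb and to Nox4. Counts include 2 named genes whose values are not reported here. The text also names, after their values were seen, further list members and the genes on the opposite strand. The alternatives were DESeq2 (1.42.0) size factors and test, limma-voom (limma 3.58.1), other scalings, filters and thresholds, mitochondrial share, left-out libraries, a replicate block and the values of the authors' deposited table. Replicate numbers were not taken to pair the libraries, as the labels do not say that they do.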

Additional observations from a re-analysis of the deposited data

How the results depend on the processing

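Calls of Cybb, Cyba, Ncf1 and Ncf4 kept their direction and side of the threshold under all 20 alternatives. Precision is limited by 3 libraries a genotype. Over all genes 5100 were called, against 2763 with library totals, 2596 at a threshold of 0.01, 3643 with the replicate block and 2531 to 7647 when 1 library was left out (7647 without Sirt5+/+ replicate 3, 2677 without Sirt5-/- replicate 2 and 2531 without Sirt5-/- replicate 3); the cause was not tested. Nox4 was past the threshold with the mitochondrial share as a covariate (-1.35) and ran from -1.59 to -0.59 with 1 library left out, past it at -1.50 without Sirt5+/+ replicate 1. The genes of the set called lower were then 1, and 0 to 1 over left-out libraries. The deviations of same-numbered libraries had correlations of -0.19, 0.115 and -0.20, which gave no sign of pairing. With 3 libraries a genotype they cannot exclude it. The replicate block left the call of each of the 5 genes as it was (Nox4 -1.07). S100a9 (0.03) changed sign with the replicate block (-0.045), with the covariate (-0.038), and without Sirt5+/+ replicate 1 (-0.19), Sirt5+/+ replicate 2 (-0.04) or Sirt5-/- replicate 2 (-0.53), with a highest value of 0.41 among left-out libraries, and Rap1a (0.34) ran from -0.040 without Sirt5+/+ replicate 1 to 1.34 without Sirt5+/+ replicate 3. Cyba relative to macrophage markers (0.06) was at -0.14 to 0.34 with 1 library left out. Of 1392 values of 70 other named genes, 1321 kept direction and side, 34 lost a call, 31 gained one and 6 changed sign.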
